A study of Mus musculus with 18 samples.

Results

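In mouse CD8 T cells, 2414 of 245630 autosomal regions marked by trimethylation of histone H3 at lysine 9 (H3K9me3) held a peak in both wild-type lists and none in either G9a knockout list. They were found by merging the peaks of the authors' 4 H3K9me3 lists wherever peaks shared at least 1 bp, and keeping the merged regions with that pattern. The lists come from Ehmt2-/- cells (KO, 2 replicates) and Ehmt2+/+ cells (WT, 2 replicates) of C57BL/6 spleen, which were cultured with antibodies to CD3 and CD28. Chromatin was native, cut with micrococcal nuclease and precipitated with an antibody to H3K9me3. RNA of the nearest genes was read in 10 other libraries, from spleen and lymph node T cells of the same strain that had proliferated for 4 weeks under lymphopenic conditions. Their groups are G9a KO CD4+CD8+ cells (KO DP, n = 4), G9a KO CD4-CD8+ cells (KO SP, n = 2) and G9a WT CD4-CD8+ cells (WT SP, n = 4). The marks and the RNA were therefore measured in different preparations. The labels do not say which part of the gene was deleted, in which cells the deletion was driven, or whether each library stands for another animal. The p-values here therefore reflect the variation among these libraries, part of which may be technical. KO SP libraries carry the same title numbers as KO DP replicates 3 and 4. The regions were selected on presence in the authors' lists, and ranked on their scores, so their peaks in WT and lack of peaks in KO are how they were defined and were not tested.

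H3K9me3 is the mark of constitutive heterochromatin. It is laid down by SUV39H1, SUV39H2 and SETDB1 over satellite repeats at centromeres, over retroviral and LINE elements, over silent ribosomal RNA genes and over some CpG-rich promoters of germline and imprinted genes, and heterochromatin protein 1 binds it. G9a, encoded by Ehmt2, works with GLP mainly as the mono- and dimethyltransferase of the same lysine and also takes part in silencing genes by DNA methylation.

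A set of the regions lay at CpG-rich gene starts. The promoters below are examples of CG-dense and CG-poor starts from that set, in which the CG number ran from 0 to 35 over the 75 genes with a sequence. Each has a single RefSeq promoter entry (build GRCm38.p6) and a member centred within 1 kb of its start. The 250 bases before the start are shown 5′ to 3′ on the gene's strand, with CG dinucleotides, the sites of DNA methylation, in capitals.
Igf2r, chr17:12769707-12769956, minus strand: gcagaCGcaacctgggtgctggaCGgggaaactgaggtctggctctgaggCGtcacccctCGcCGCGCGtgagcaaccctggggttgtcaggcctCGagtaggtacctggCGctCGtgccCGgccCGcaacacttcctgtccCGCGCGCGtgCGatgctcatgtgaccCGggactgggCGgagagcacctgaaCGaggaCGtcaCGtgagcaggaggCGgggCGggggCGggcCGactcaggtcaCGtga
Foxd3, chr4:99656049-99656298, plus strand: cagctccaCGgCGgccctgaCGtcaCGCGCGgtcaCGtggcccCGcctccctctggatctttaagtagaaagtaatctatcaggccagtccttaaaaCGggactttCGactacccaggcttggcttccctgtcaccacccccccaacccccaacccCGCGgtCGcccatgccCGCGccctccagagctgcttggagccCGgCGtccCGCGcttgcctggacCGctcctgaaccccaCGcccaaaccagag
Zfp42, chr8:43307010-43307259, minus strand: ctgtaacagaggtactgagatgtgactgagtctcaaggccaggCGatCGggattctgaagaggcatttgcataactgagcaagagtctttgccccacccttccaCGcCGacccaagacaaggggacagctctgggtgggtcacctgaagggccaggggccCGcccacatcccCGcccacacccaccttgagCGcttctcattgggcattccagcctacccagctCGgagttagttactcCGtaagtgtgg
Sycp2, chr2:178407659-178407908, minus strand: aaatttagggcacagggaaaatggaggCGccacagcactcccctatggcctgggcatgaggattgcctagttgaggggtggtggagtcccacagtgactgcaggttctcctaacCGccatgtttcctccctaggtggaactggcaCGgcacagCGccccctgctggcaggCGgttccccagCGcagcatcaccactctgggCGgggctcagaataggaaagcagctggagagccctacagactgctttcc
Akr1c13, chr13:4190937-4191186, plus strand: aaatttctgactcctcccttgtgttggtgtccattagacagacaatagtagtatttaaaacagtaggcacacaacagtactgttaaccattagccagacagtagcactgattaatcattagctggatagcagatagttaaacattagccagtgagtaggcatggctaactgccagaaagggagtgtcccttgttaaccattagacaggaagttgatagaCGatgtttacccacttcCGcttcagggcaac
Igf2r, the imprinted receptor that clears insulin-like growth factor 2, has 27 CG in these bases, and Foxd3, a forkhead factor of pluripotent and neural crest cells, has 21. Zfp42 (Rex1), a zinc finger protein of pluripotent and germ cells, has 9. Sycp2, a component of the meiotic synaptonemal complex, has 7, and Akr1c13, an aldo-keto reductase, has 2. At least as many CG were found in 9.50% of 27025 genes for Igf2r, 18.0% for Foxd3, 42.8% for Zfp42, 48.6% for Sycp2 and 81.7% for Akr1c13. Both strands read the same for this motif. The members at Igf2r and Akr1c13 are weak ones, with ranks 1996 and 1677 of 2414 by their WT scores. Their authors' scores were 7.57 and 8.66 in WT replicate 1 and 12.6 and 15.8 in WT replicate 2. Those at Zfp42, Foxd3 and Sycp2 have ranks 238, 381 and 654.

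The 4 lists differ in length and depth. They hold 110466 and 154201 autosomal peaks in KO replicates 1 and 2, and 82410 and 22980 in WT replicates 1 and 2. Scores come in steps of 0.485 and 0.466 in the KO lists and of 0.541 and 1.58 in the WT lists, so WT replicate 2 has the coarsest scores, and its lowest score is 4 steps. WT replicate 2 covers 16.0 Mb, against 69.4 Mb for WT replicate 1, 80.9 Mb for KO replicate 1 and 128.3 Mb for KO replicate 2. A region could therefore enter the set only if the shortest list held it, and 59.0% of the regions of WT replicate 2 were also in WT replicate 1. The WT lists share 13146 regions, of which the 2414 are 18.4%. The number depends on every list: the rule kept 34187 regions without WT replicate 2, 9028 without WT replicate 1, 3885 without KO replicate 1 and 4286 without KO replicate 2. In the RNA, FPKM summed to 183632 and 292872 in KO DP replicates 4 and 3, against 441903 to 504013 in the other libraries. The summed FPKM of 7 T cell markers was 1136 to 3691 in KO DP, 4168 to 4610 in KO SP and 3486 to 4417 in WT SP. Library titles run from 34 to 37 (KO DP and WT SP replicates 1 and 2) and from 738 to 741 (all others). Summed erythroid markers ran from 468 to 1214 FPKM in the first range and from 1.32 to 57.4 in the second, and myeloid markers from 44.5 to 152 and from 5.86 to 21.8. The part of these markers in the RNA results was not tested beyond fits within each range. The median log2 difference of all genes between KO DP and WT SP was 0.06 within titles 34 to 37 and -0.83 within titles 738 to 741, where both libraries of low FPKM sum are, so differences within the second range are read against that shift.

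The regions are short and of middling strength in the WT lists, apart from 3 at the top. Together they cover 2.58 Mb, with a median width of 911 bp and a middle range of 723 to 1203 bp. The 7556 regions found in all 4 lists have a median width of 1776 bp, and the 28115 found in both KO lists alone 975 bp. The median authors' score over the members was 16.2 in WT replicate 1, where the whole list has a median of 11.9, and 17.4 in WT replicate 2, which is also that list's median. On a scale from 0 to 100 within each list, the median percentile of the members was 66.4 in WT replicate 1 and 52.9 in WT replicate 2, against 90.1 and 73.3 for regions in all 4 lists. Members were ranked by the lower of both WT percentiles, whose median was 43.6. It was at least 90 in 75 members, at least 75 in 355 and at least 50 in 983. Scores of the WT replicates ran together loosely, with a Spearman correlation of 0.363 over the members, which share the depth of each library, and 0.532 over all regions in both WT lists.

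**Figure D1:**
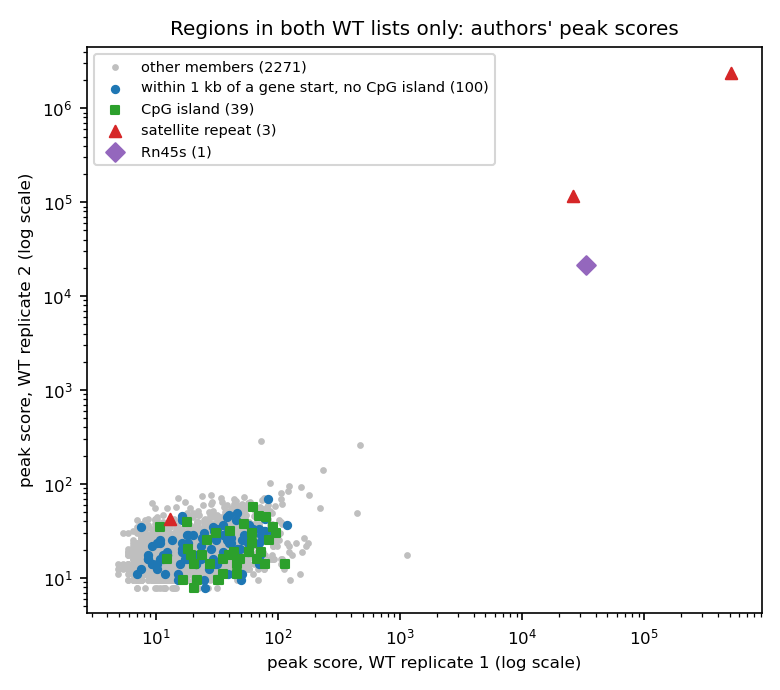
Authors' peak score of each member in WT replicate 1 (x axis) and WT replicate 2 (y axis), both on a log scale with no unit, coloured by what lies at the region. The GSAT_MM satellites and Rn45s lie at the upper right, with both scores of at least 21418, while the remaining members, CpG islands and gene starts included, form 1 cloud far below them that reaches 285.7 in WT replicate 2.

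The 3 strongest members were major satellite repeats and the ribosomal RNA gene. GSAT_MM, the mouse gamma (major) satellite of pericentromeric heterochromatin, gave the first, at chr2:98506426-98507837 (mm9), with scores of 516902 in WT replicate 1 and 2388931 in WT replicate 2. The second is another GSAT_MM stretch, at chr9:35112721-35113473, scored at 25998 and 117690. The third is chr17:39979807-39986039, the exon of Rn45s, the precursor of the 45S ribosomal RNA, scored at 33534 and 21418. These are assembled copies of sequences that exist in very many copies, so reads of unplaced copies can fall on them. No KO list has a peak there, although both have peaks nearby. Whether the lists were filtered or mapped differently at such sequences could not be checked, and the cause of the missing peaks was not tested. Within 10 kb the highest KO scores were 13.1 and 21.9 (replicates 1 and 2) at the chromosome 2 satellite, 26.2 and 21.4 at the chromosome 9 satellite, and 7.28 and 8.39 at Rn45s. The nearest KO peak to Rn45s lay 23 bp away, in KO replicate 2. The highest score of any satellite peak was 259.2 and 263.8 in the KO lists, against 516902 and 2388931 in the WT lists, and the highest of any peak at all was 1132 and 4067 in the KO lists. Satellite peaks numbered 68 and 69 in the KO lists and 115 and 24 in the WT lists, so satellites as a class were present in both.

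Below these, the ranks from 4 to 15 were held by simple repeats, large first exons and single repeats. Rank 4 is a (CTGTG)n repeat in the first intron of Smo, which transduces Hedgehog signals (scores 465.8 and 257.3 in WT replicates 1 and 2). Ranks 5 and 7 are the long first exons of Celsr1 (233.7 and 140.5) and Celsr2 (122.8 and 94.7), cadherin-family receptors of planar cell polarity. Rank 10 is the first exon of Gnas, the imprinted locus of the stimulatory G protein alpha subunit (120.7 and 83.6), which is nearest to 3 members. Rank 6 is an intergenic RMER17C element 224 kb from Amigo2, rank 8 a (CACAG)n repeat 35.7 kb from Zfp825, and rank 13 a B3 element 7.40 kb from the start of Prr22. The others, with no annotated repeat, have as nearest genes Mir6350, Nfkbiz, Gm996, Pcbd2 and Gm7120. At Gm7120 the KO lists have peaks scored at 46.1 and 75 within 10 kb, the nearest 1247 bp away. At 8 of the 15 regions, neither KO list has a peak within 10 kb.

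Gene starts and CpG islands made up a larger share of these regions than of the regions in all 4 lists or in the KO lists alone. Of the 2414, 109 lie within 1 kb of a start, a share of 4.52% (exact 95% interval 3.72% to 5.42%, counting error only), against 1.22% of regions in all 4 lists and 0.405% of regions in both KO lists alone. CpG islands are the annotation of 39 members (1.62%, exact 95% interval 1.15% to 2.20%), of 3 regions in all 4 lists (0.0397%) and of 0 in both KO lists alone. Where the rule was applied without WT replicate 1, WT replicate 2 or KO replicate 2, the CpG island share was 0.454%, 0.491% and 0.980%. Exons hold 3.44%, 1.26% and 0.281% of the same sets, and 5′ untranslated regions 0.870%, 0.0132% and 0.0142%. This was a property of the lists as wholes too: 0.572% and 0.574% of all KO peaks and 1.41% and 1.80% of all WT peaks lie within 1 kb of a start, and CpG islands hold 6 and 0 KO peaks against 195 and 53 WT peaks. The share at starts was 2.17% where the rule was applied without WT replicate 2 and 2.82% without WT replicate 1. Bases differed in the same way. Of the 109 genes at these starts, 75 have a RefSeq promoter sequence, with a median of 15 CG in the 250 bases and 10 or more in 74.7% of them. Promoters at regions in all 4 lists had a median of 10 (59 genes) and those at regions in both KO lists alone a median of 1 (84 genes), while all 27025 genes had a median of 6 and 10 or more in 40.2%.

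**Figure D2:**
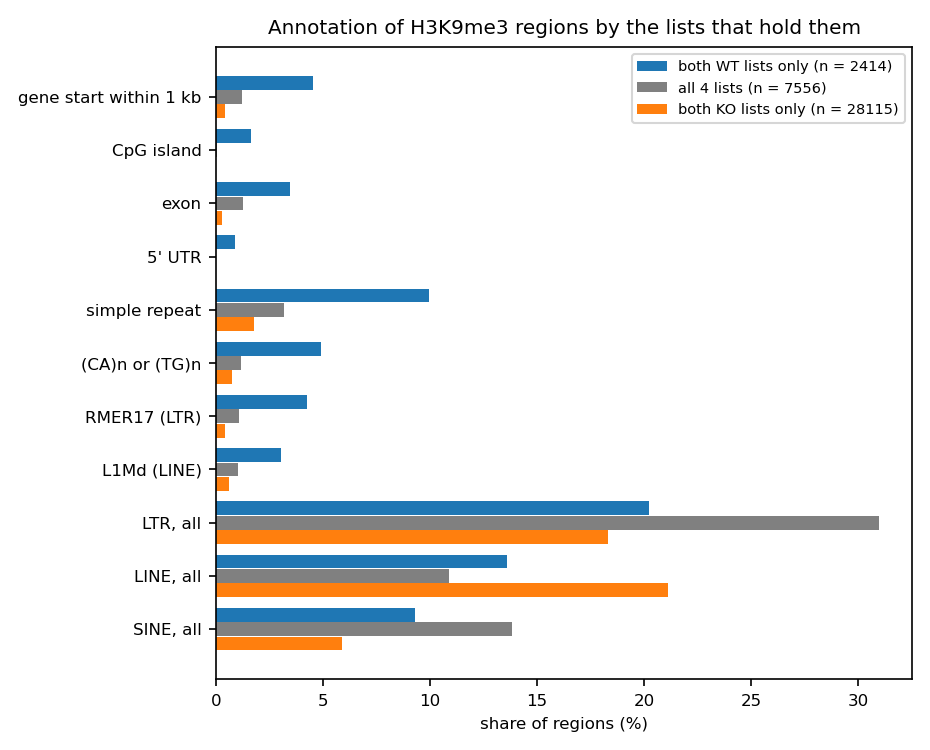
Share of regions (x axis, percent) with each annotation (rows) among regions in both WT lists only, in all 4 lists and in both KO lists only. The bars of the WT-only regions are the longest of the 3 for gene starts (4.52%), CpG islands (1.62%), simple repeats (9.94%) and RMER17 (4.23%), while LTRs as a whole (20.3%) and SINEs (9.28%) fall below regions in all 4 lists.

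Germline, imprinted, developmental and neural genes are among these starts (named here with their values already known). The germline genes are Zfp42, Boll, Spo11, Sycp2, Adad1 and Atf7ip2. Spo11 makes the DNA breaks that start meiotic recombination, Boll is a germ cell RNA-binding protein and Adad1 acts in spermatids. The imprinted genes are Mest, Igf2r, Klf14 and Gnas, whose region here lies in an intron and is weaker than that in its first exon. Scores in WT replicates 1 and 2 were 119 and 36.3 at Mest and 17.9 and 39.5 at this Gnas region. They were 16.2 and 18.9 at Klf14 and 7.57 and 12.6 at Igf2r. Developmental factors include Foxd3, Sox11, Dbx1 and the signal Bmp3, and neural genes include the receptors Gabra2, Gabra5 and Grin3a and the RNA-binding proteins Elavl2, Rbfox1 and Rbfox3. Broadly used genes were there as well, among them Smarcd2 of the SWI/SNF remodeller, Park7, Dld, Ddx24, Nucks1 and Taf7. Members at starts were stronger than the rest in WT replicate 1, with a median score of 27.6 against 16.2 for all members, and had 20.5 against 17.4 in WT replicate 2. CpG island members had a median of 43.3 in WT replicate 1, at the 92.8 percentile, and of 17.4 in WT replicate 2, at the 52.9 percentile.

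CpG island members were not spread evenly. Of the 39, 13 lie on chromosome 12, and 12 of these between 19 and 25 Mb (mm9), a stretch that holds 20 members in all. Scores of these 12 ran from 16.8 to 96.3 in WT replicate 1 and from 9.47 to 44.2 in WT replicate 2. Their nearest annotated genes include the gene models 1700030C10Rik, 2410018L13Rik and 5730507C01Rik, and the stretch was chosen after its count was seen. The densest 1 Mb window of all was on chromosome 4, with 15 members from 150 Mb on, where the median over the 1382 windows with a member was 1. There, 14 members lie in introns or exons of Camta1, a calmodulin-binding transcription activator used in neurons, within 497 kb, 13 of them outside annotated repeats. Their scores ran from 8.12 to 63.3 in WT replicate 1 and from 14.2 to 56.8 in WT replicate 2. KO peaks lay between them. The stretch held 58 and 105 KO peaks beside 120 and 56 WT peaks, with the highest at 57.8 and 124.9 in KO and 225.6 and 56.8 in WT.

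No repeat was annotated at 43.1% of these regions, against 38.8% of regions in all 4 lists and 51.2% of those in both KO lists alone, and the families differed. Long terminal repeat (LTR) elements, remnants of endogenous retroviruses, were the annotation of 489 members (20.3%), against 31.0% of regions in all 4 lists and 18.3% of those in both KO lists alone. Within them RMER17, a family of mouse ERVK LTRs, held 102 members (4.23% against 1.05% and 0.402%), led by RMER17B with 42. The ORR1 family of MaLR elements held 4.27% against 9.32% and 5.10%, and intracisternal A particles 18 members (0.746% against 1.23% and 0.0996%). LINE elements held 13.6% against 10.9% and 21.1%. The young L1Md subfamilies held 3.02% against 1.01% and 0.622%, and the older Lx subfamilies 7.17% against 4.51% and 13.8%. SINE elements held 9.28% against 13.8% and 5.89%. Of all peaks of WT replicate 2, 21.7% lie at LTRs, 13.5% at LINEs and 10.5% at SINEs, so the members' shares of these classes are close to those of the shortest list. In WT replicate 1 the shares are 21.0%, 21.5% and 8.08%. Simple repeats held 240 members (9.94% against 3.19% and 1.77%), 118 of them (CA)n or (TG)n (4.89% against 1.15% and 0.736%). Simple repeats also make up 10.1% of all peaks of WT replicate 2, but 2.47% of those of WT replicate 1 and 1.88% and 1.86% of the KO lists, so their share here is close to that of the shortest list. Satellites held 3 members, 19 regions in all 4 lists and 15 in both KO lists alone.

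Most of the regions lie close to a KO peak. The nearest KO peak was a median of 3.35 kb away, with a range from 1 bp to 304 kb, and 57.3% of members had one within 5 kb and 28.3% within 1 kb. Members at gene starts were farther (median 5.45 kb) and so were CpG islands (6.38 kb) and SINEs (7.14 kb), while LINE members (2.49 kb) and RMER17 (1.31 kb) were nearer. At the edge of the rule, 119 members have a KO peak within 100 bp, and 132 of the 10732 regions that were left out for a KO peak overlap it by at most 100 bp. Both edge groups had a median lower WT percentile of 32.3. Without the members that have a KO peak within 5 kb, 1031 regions stayed, 6.01% of them within 1 kb of a start.

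**Figure D3:**
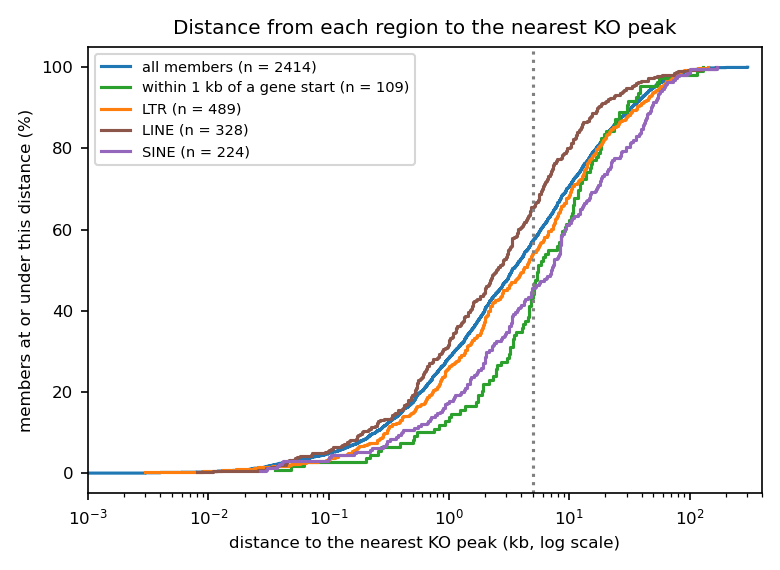
Cumulative share of members (y axis, percent) by the distance to the nearest peak of either KO list (x axis, kb, log scale), for all members, gene starts, LTRs, LINEs and SINEs; the dotted line marks 5 kb. The LINE curve runs above that of all members (65.5% against 57.3% within 5 kb), and those of gene starts (43.1%) and SINEs (45.5%) below it.

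RNA of the nearest genes came next. FPKM is a read count scaled to gene length and library size, and differences are on the log2(FPKM + 1) scale, which understates changes of low genes. In bulk RNA, fewer cells of a type and less RNA per cell cannot be told apart. Ehmt2 had 20.9, 23.6, 12.8 and 7.28 FPKM in the KO DP libraries (replicates 1 to 4), 12.6 and 13.6 in the KO SP libraries, and 18.1, 42.6, 27.0 and 21.6 in WT SP. The KO DP and WT SP libraries overlapped, and neither comparison passed limma's test in the fit over all libraries (adjusted p = 0.205 and 0.938). Within titles 738 to 741 all 4 KO libraries lay below both WT SP libraries and the KO DP difference was -1.23 (adjusted p = 0.0143), and within titles 34 to 37 it was -0.32 (adjusted p = 0.714). The deleted exons are not named in the labels, and reads outside them would not tell the genotypes apart. Rn45s had 177.9, 362.7, 92.7 and 82.5 FPKM in KO DP, 72.3 and 146.7 in KO SP, against 1366, 594.7, 145.5 and 101.9 in WT SP. The groups overlapped, since WT SP replicates 3 and 4 lay among the KO libraries and WT SP replicates 1 and 2 above them all. In KO DP it differed by -1.15 ± 0.76 on the log2 scale (SE, limma adjusted p = 0.324) and in KO SP by -1.68 ± 0.93 (adjusted p = 0.938). KO DP gave -1.82 within titles 34 to 37 and -0.47 within titles 738 to 741. With the replicate number as a block the KO SP difference was -2.78 and called (adjusted p = 0.0263). That block sets KO SP beside replicates 1 and 2 of KO DP and WT SP, all of the other title range. Neither Gnas nor Celsr1 passed the test in either comparison over all libraries. Celsr1 in KO DP did with the replicate number as a block (-0.76, adjusted p = 0.0490) and with the title range as a block (0.0269). Its difference was -0.89 within titles 34 to 37 and -0.63 within titles 738 to 741. Gnas in KO DP differed by 0.03 within titles 34 to 37 and by -1.30 within titles 738 to 741 (adjusted p = 0.0293). Gnas averaged 410 ± 239 FPKM in KO DP, 545 in KO SP and 542 ± 75.9 in WT SP (SD, n = 4, 2 and 4), and Celsr1 1.42 ± 0.77, 1.35 and 3.16 ± 1.46. Of the other top 15 genes, Amigo2, Zfp825, Nfkbiz, Pcbd2 and Gm7120 were tested and not called over all libraries. Within titles 738 to 741 Amigo2 (-1.34, adjusted p = 0.00844), Zfp825 (-0.86, 0.0393) and Nfkbiz (-0.81, 0.0456) were called lower in KO DP, where 57.1% of all genes were called. Lrrc4c, 4933422A05Rik, Smo, Celsr2, Gm996 and Prr22 stayed under the level tested, while Mir6350 was not matched in the RNA table.

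The members name 1872 distinct nearest genes, of which 1715 are in the RNA table and 715 reached the mean of 0.5 FPKM over all 10 libraries that was tested. In KO DP against WT SP, 65 of the 715 were called by limma (adjusted p under 0.05), 28 higher and 37 lower. That is 9.09%, where 7.89% of all 11162 tested genes were called (2.86% higher and 5.03% lower), so the share is near that of all genes. With the replicate number as a block 116 were called (45 higher and 71 lower, 16.2% against 12.9% of all genes, 4.8% higher and 8.05% lower). After median-ratio scaling, which moves the median difference of all genes from -0.38 to -0.04, 157 were called (83 higher and 74 lower, 22.0% against 18% of all genes, 9.2% higher and 8.82% lower). Without KO DP replicates 3 and 4, the libraries of low FPKM sum, the balance turned to 49 higher and 22 lower of 71 called, and over all genes to 529 higher and 308 lower, against 319 higher and 562 lower with them. The median log2 difference over the 715 was -0.33, against -0.38 over all genes, and after scaling 0.01 against -0.04. The count depended on single libraries, with 28 called without WT SP replicate 3, 30 without WT SP replicate 1 and 31 without WT SP replicate 4. It was 33 without KO DP replicate 3 and 98 without WT SP replicate 2. The share of all genes called in these fits is not given here, so the swing is not read as particular to the nearest genes. By distance, 2 of 39 genes with a member within 1 kb were called, 15 of 185 between 1 and 10 kb, 36 of 348 between 10 and 100 kb and 12 of 143 beyond (5.13%, 8.11%, 10.3% and 8.39%).

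**Figure D4:**
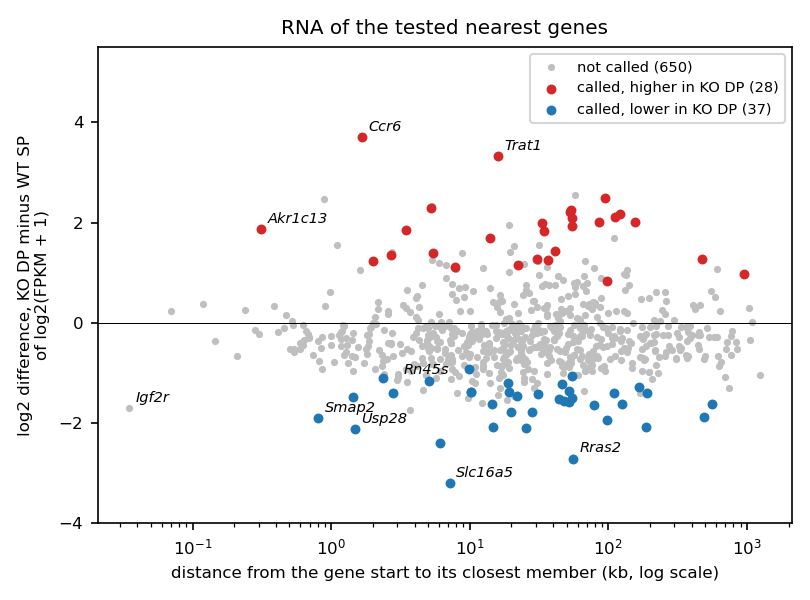
Difference of log2(FPKM + 1) between KO DP and WT SP (y axis, KO DP minus WT SP) for the 715 tested nearest genes, against the distance from the gene's start to its closest member (x axis, kb, log scale). Called genes, 28 higher (red) and 37 lower (blue), are scattered over all distances, with Ccr6 (3.70) the highest and Slc16a5 (-3.19) the lowest.

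Among the nearest genes called in KO DP, Ccr6 rose the most. This receptor of the chemokine CCL20, a mark of Th17 cells, had 24.3, 36.3, 18.3 and 15.3 FPKM in KO DP, 6.03 and 7.87 in KO SP, against 1.02, 0.820, 0.174 and 1.43 in WT SP. Every KO DP library lay above both KO SP libraries and these above every WT SP library, and the log2 difference of KO DP was 3.70 ± 0.32 (adjusted p = 5.08e-05, limma), with 4.00 and 3.39 within titles 34 to 37 and 738 to 741. Its KO SP difference of 2.13 ± 0.40 was not called (adjusted p = 0.108), but was after scaling (0.0322) and within titles 738 to 741 (2.22, adjusted p = 0.0219). It was also called with the block (0.0277), which sets KO SP beside KO DP and WT SP libraries of the other title range. Its member lies 1.67 kb from the start and has rank 202. Trat1, an adaptor of the T cell receptor, had 76.2, 72.5, 55.1 and 23.7 FPKM in KO DP, 24.9 and 14.6 in KO SP, against 13.7, 3.48, 1.70 and 3.33 in WT SP. KO DP and WT SP did not overlap, and the log2 difference was 3.33 ± 0.52 (adjusted p = 0.00285), with 3.21 (adjusted p = 0.104) and 3.44 within both title ranges and a member 16.0 kb away. In KO SP it differed by 1.93 (adjusted p = 0.918), and by 2.56 within titles 738 to 741 (adjusted p = 0.0341). Kit, the stem cell factor receptor, had 6.65, 6.46, 2.72 and 2.11 FPKM in KO DP, 0.470 and 0.397 in KO SP, against 0.158, 0.599, 0.200 and 0.126 in WT SP. Egr2, a zinc finger factor induced by T cell receptor signals, had 11.5, 20.04, 6.39 and 3.56 FPKM in KO DP, 2.11 and 1.53 in KO SP, against 1.45, 2.17, 0.796 and 0.806 in WT SP. Both rose without overlap, Kit by 2.01 ± 0.31 (adjusted p = 0.00302) and Egr2 by 2.12 ± 0.42 (adjusted p = 0.0119), with members 85.7 and 112 kb away. Within titles 34 to 37 and 738 to 741 the differences were 2.47 and 1.55 for Kit and 2.54 and 1.69 for Egr2. The bone morphogenetic protein Bmp7 (2.01), the inflammasome sensor Nlrp1a (2.20), the fatty acid transporter Slc27a6 (2.10), Podnl1 (2.30), Tmem154 (2.24) and the sulfotransferase Chst2 (2.49) also rose. Their closest members lay 157, 53.2, 54.4, 5.24, 53.8 and 94.2 kb from the starts, in that order. Of these 6 genes, Chst2 overlapped between the groups. Its call was lost in 8 of the 10 fits that leave out a library (highest adjusted p = 0.112). In the fit that paired the numbers its adjusted p was 0.000903.

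Among the nearest genes called in KO DP, the largest falls were those of Slc16a5 and Rras2. Slc16a5, a monocarboxylate transporter, had 0.680, 0.843, 1.43 and 0.725 FPKM in KO DP, 10.7 and 14.4 in KO SP, against 17.4, 7.16, 29.5 and 18.9 in WT SP. Every KO DP library lay far below the others, and the log2 difference was -3.19 ± 0.37 (adjusted p = 0.000415, limma), with -2.80 and -3.59 within titles 34 to 37 and 738 to 741. Rras2, a Ras-related GTPase, had 18.7, 16.8, 11.5 and 7.30 FPKM in KO DP, 87.4 and 105 in KO SP, against 84.2, 57.2, 118 and 110 in WT SP, a difference of -2.71 ± 0.34 (adjusted p = 0.000758). Il6st, the gp130 chain through which interleukin 6 signals, had 8.82, 10.9, 3.97 and 2.97 FPKM in KO DP, 18.3 and 30.9 in KO SP, against 34.8, 18.6, 37.3 and 27.8 in WT SP, a difference of -2.10 ± 0.39 (adjusted p = 0.00870). Within titles 34 to 37 and 738 to 741 the differences were -1.91 and -3.50 for Rras2 and -1.29 (adjusted p = 0.175) and -2.90 for Il6st. In all 3 genes KO SP lay near WT SP, with log2 differences of -0.37, 0.11 and -0.26 that were not called. The deubiquitinase Usp28 (-2.12), the kinase Dyrk2 (-2.07), Treml2 (-2.39), Dmrta1 (-2.08), Haao (-1.95) and Gramd3 (-1.89) fell as well, each without overlap between KO DP and WT SP. Their closest members lay 1.48, 14.8, 6.13, 187, 97.3 and 493 kb from the starts, in that order. Those of Slc16a5, Rras2 and Il6st lay 7.2, 55.7 and 25.4 kb away. Beyond the named genes the called set holds Icos (1.93) and Cdk1 (1.69) among the rises and Tcf7 (-1.46) and S1pr1 (-1.22) among the falls, picked here for their known roles in T cells. Of the 65 called genes, 60 did not overlap between KO DP and WT SP (92.3%, where 91.9% of all called genes did not), and 125 of the 715 tested did not (17.5%, against 16.5% of all tested genes). Of the 65, 27 were called without each of the 10 libraries in turn, 63 after scaling, and 42 without KO DP replicates 3 and 4, where 64 kept their direction. Any subset of these libraries keeps the direction of the 60 genes without overlap, so counts of kept direction give no added support. Within titles 34 to 37 all 65 kept their direction. Within titles 738 to 741, where the KO DP libraries of low FPKM sum are, 63 kept it and 60 were called, in a fit that called 54.2% of the nearest genes and 57.1% of all genes. In the fit within titles 34 to 37, 14 nearest genes were called (1.97%, against 1.41% of all genes).

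**Figure D5:**
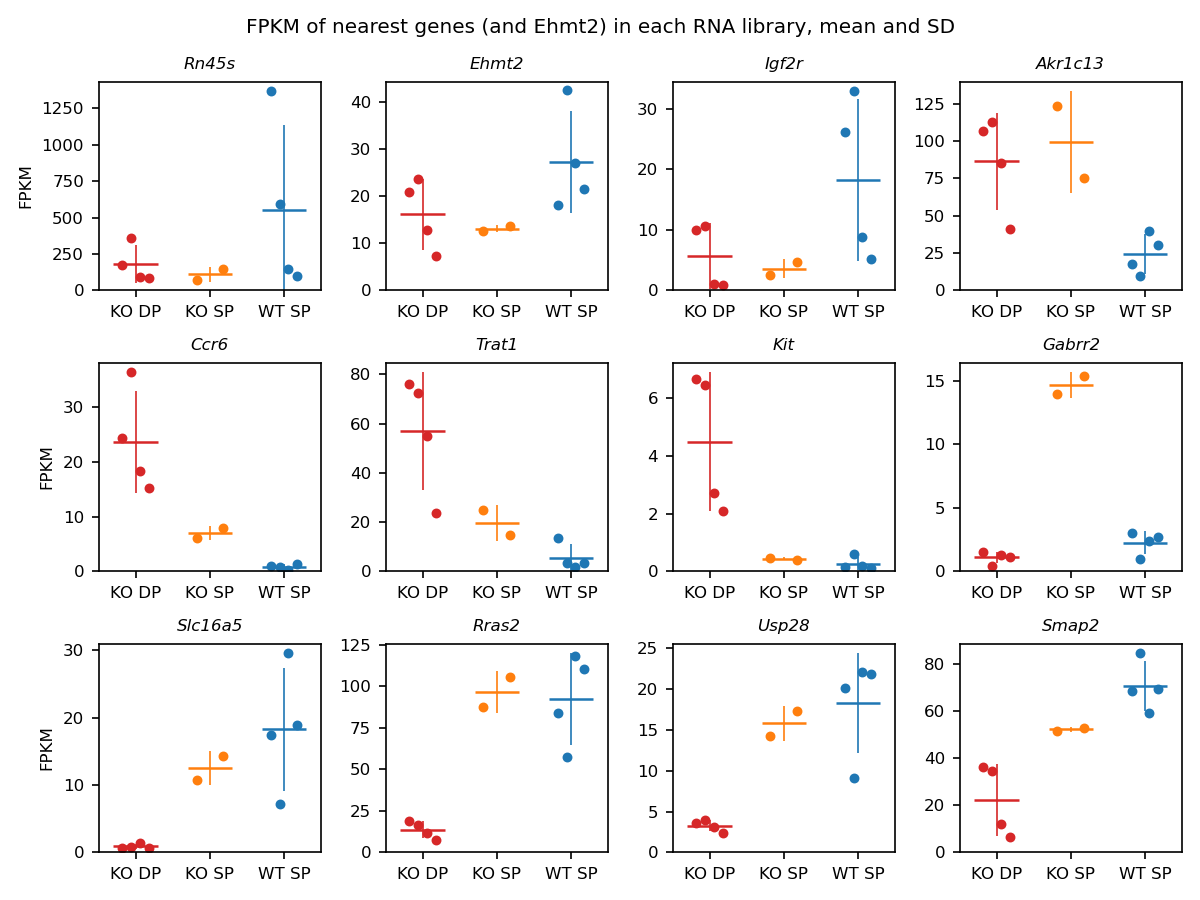
FPKM (y axes, linear from 0, each panel with its own scale) of 12 genes in every library of KO DP, KO SP and WT SP; points are libraries, horizontal lines means and vertical lines 1 SD either side (n = 4, 2 and 4), stopped at 0. Ccr6, Trat1 and Kit are high in KO DP, Slc16a5, Rras2 and Usp28 are low in KO DP alone, and Rn45s, Ehmt2 and Igf2r overlap between KO DP and WT SP.

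Many genes with a member at the start were near silent in all groups. Of the 99 in the table, 52 did not reach 0.5 FPKM in any library. The same held for 825 of all 1715 nearest genes and for 9854 of all 23234 genes. The median over the 99 of the group mean was 0.155 FPKM in KO DP, 0.0190 in KO SP and 0.0204 in WT SP. The same medians over all genes were 0.428, 0.158 and 0.200. Within KO DP the median was 0.178 and 0.285 FPKM in replicates 3 and 4, the libraries of low FPKM sum, and 0.0773 and 0.0263 in replicates 1 and 2. Mest was listed at 0 in all 10 libraries, and Zfp42 at 0 in all but KO DP replicates 3 and 4 (0.0293 and 0.274). Foxd3, Sycp2, Adad1 and Klf14 stayed under 0.2 FPKM in every library. Boll and Spo11 were low but tested. Spo11 had 3.91, 3.91, 3.10 and 2.20 FPKM in KO DP, 6.41 and 5.24 in KO SP, against 2.15, 6.01, 5.97 and 4.69 in WT SP, a log2 difference in KO DP of -0.37 ± 0.30 (adjusted p = 0.409, limma), with 0.06 within titles 34 to 37 and -0.80 within titles 738 to 741 (adjusted p = 0.0308). Boll differed by -0.66 ± 0.32 (adjusted p = 0.207), with -0.71 and -0.60. Igf2r had 10.05, 10.7, 1.12 and 0.847 FPKM in KO DP, 2.49 and 4.72 in KO SP, against 26.2, 32.9, 8.76 and 5.27 in WT SP. The groups overlapped across the title ranges, and the difference of -1.70 ± 0.70 in KO DP was not called (adjusted p = 0.150), but it was with the replicate number as a block (adjusted p = 0.00237), and it was -1.42 and -1.98 within titles 34 to 37 and 738 to 741. In KO SP it was -1.78 ± 0.86 (adjusted p = 0.938), and -2.90 with the block (adjusted p = 0.00190). The block sets KO SP beside replicates 1 and 2 of KO DP and WT SP, all of the other title range. WT SP replicates 1 and 2 had 26.2 and 32.9 FPKM, against 8.76 and 5.27 in WT SP replicates 3 and 4. The block value therefore includes that difference between ranges.

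Only 2 of the 39 tested genes at such starts were called in KO DP (5.13%, where 7.89% of all genes were). Akr1c13 had 106, 113, 85.4 and 40.9 FPKM in KO DP, 124 and 75.3 in KO SP, against 17.7, 9.44, 39.8 and 30.3 in WT SP, a rise of 1.87 ± 0.45 (adjusted p = 0.0296, limma) in KO DP. Its KO SP libraries were as high, a difference of 2.13 ± 0.56 that was not called (adjusted p = 0.436). It belongs to a family of close copies, so its reads may be shared with them. Smap2, which acts on membrane traffic through ARF GTPases, had 36.1, 34.4, 12.2 and 6.53 FPKM in KO DP, 51.5 and 52.9 in KO SP, against 68.8, 84.8, 59.3 and 69.4 in WT SP, a fall of 1.90 on the log2 scale (SE 0.46, adjusted p = 0.0287). Both calls were lost in 4 of the 10 fits that leave out a library (highest adjusted p = 0.0838 and 0.0886). Within titles 34 to 37 and 738 to 741 the differences were 2.99 and 0.75 for Akr1c13 and -1.09 and -2.71 for Smap2.

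In KO SP against WT SP, 1 of the 715 genes was called, where 0.116% of all genes were (0.0717% higher and 0.0448% lower), and 33 had an unadjusted p under 0.05 (4.62%, against 3.44% of all genes). Gabrr2, a subunit of the GABA-C receptor that is nearest to a member 10.1 kb away, had 1.53, 0.450, 1.26 and 1.16 FPKM in KO DP, 13.9 and 15.4 in KO SP, against 3.03, 0.977, 2.37 and 2.71 in WT SP. Both KO SP libraries lay above all others, and the difference of KO SP was 2.31 ± 0.35 (adjusted p = 0.0278, limma), which rested on 2 libraries. The call was lost after scaling (adjusted p = 0.0736) and in 5 of the 10 fits that leave out a library, those without KO DP replicate 3, without either KO SP library, and without WT SP replicate 3 or 4 (up to 0.350), and held with the block (0.00420) and within titles 738 to 741 (2.14, adjusted p = 0.00297). With the replicate number as a block, 33 of the 715 were called, 4 higher and 29 lower (4.62% against 3.1% of all genes, 0.367% higher and 2.73% lower). KO SP libraries occur in titles 738 to 741 alone. The block compares them by number with replicates 1 and 2 of KO DP and WT SP, across the title ranges.

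The enzymes and binders of H3K9me3 were measured in the same libraries. Of 28 genes in that list 27 are in the table and were tested, and 0 were called in either comparison, with 4 at an unadjusted p under 0.05 in KO DP and 1 in KO SP, where 27.3% and 3.44% of all genes were. The median log2 difference in KO DP was -0.42, where that of all genes was -0.38. After scaling 1 gene was called each way, where 9.2% of all genes were higher and 8.82% lower. The list's genes Atf7ip, the partner of SETDB1, Morc3, a chromatin ATPase, and Kdm4c, an H3K9 demethylase, are themselves nearest to members, with 5 for Atf7ip. Atf7ip averaged 31.3 ± 18.5 FPKM in KO DP, 28.0 in KO SP and 31.2 ± 10.3 in WT SP (SD, n = 4, 2 and 4). Another list holds 17 genes for the transcription of ribosomal RNA, its regulation and its processing. Of these, 0 were higher and 2 lower in KO DP (background 2.86% and 5.03%) and 0 were called in KO SP. In KO SP 1 had an unadjusted p under 0.05, against 11 in KO DP, where 3.44% and 27.3% of all genes did. Those lower were Polr1b, a core subunit of RNA polymerase I, with 6.30 ± 2.83 FPKM in KO DP against 19.3 ± 5.45 in WT SP (-1.52 ± 0.34, adjusted p = 0.0211, limma), and Npm1, a nucleolar chaperone, with 59.3 ± 16.7 and 130 ± 18.8 (-1.16 ± 0.28, adjusted p = 0.0287). The median of the 17 in KO DP was -0.76 and after scaling -0.41, where that of all genes was -0.38 and -0.04. After scaling 5 were called lower, where 8.82% of all genes were. Of the 10 fits that leave out a library, Polr1b kept its call in 6 (highest adjusted p = 0.0809) and Npm1 in 4 (0.0933).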

How the data were processed

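The authors deposited HOMER peak lists for H3K9me3 (mm9 coordinates, each peak with a score that has no unit) and a table of FPKM per gene (fragments scaled to gene length and library size). The submitters' processing notes name Bowtie, HOMER, TopHat and Cufflinks without versions. Scores under 100 lay within 0.1 of a whole multiple of 1 step in 91.3% to 100% of peaks, and inputs were not analysed here.

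Autosomal peaks of the 4 lists were merged at 1 bp of overlap. Annotation, repeat and nearest gene are those of the deposited lists. FPKM was taken as log2(FPKM + 1) for genes that average 0.5 FPKM or more, and tested with limma 3.58.1 (R 4.3.3) over all 10 libraries (7 residual degrees of freedom), with Benjamini-Hochberg adjustment over all 11162 genes and a threshold of 0.05. The read depth behind FPKM is unknown. The text names the top 15 regions, Ehmt2, the 10 largest called rises and falls, leaving out Y-linked genes and models without a symbol, and other genes where it says so. Members and lists were chosen with earlier results of these data known. Same-numbered KO DP and WT SP libraries deviated together (correlations 0.119, 0.293, 0.111 and 0.103), and their numbers were taken as pairs in an alternative fit. Unlike-numbered libraries of the same title range did so too. KO DP replicates 1 and 2 gave 0.068 and 0.147 with WT SP replicates 2 and 1, and KO DP replicates 3 and 4 gave 0.201 and 0.243 with WT SP replicates 4 and 3. All pairs across the title ranges were negative, so these values do not tell pairing by number from a shared title range.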

Additional observations from a re-analysis of the deposited data

Results flagged for a closer look

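In 5 of the 58 groups checked in 29 genes, 1 library stood far from the other 3; chance alone gives about 1 group in 20. In WT SP replicate 1, Trat1 was high at 13.7 FPKM. In WT SP replicate 2, Chst2 was high at 6.76 FPKM and Kit at 0.599 FPKM, while Usp28 was low at 9.14 FPKM and Dmrta1 at 1.92 FPKM.

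The KO DP difference itself differed between the title ranges, by an interaction term in limma, in 2 of the 715 nearest genes, where 0.466% of all genes did. The term had an unadjusted p under 0.05 (limma) in 4784 of all 11162 tested genes. The few adjusted calls therefore do not show that the difference is the same in both ranges for the other genes. Mir763 was listed at 23.5 and 36.5 FPKM in KO DP replicates 3 and 4 and at 0 in the other libraries, an interaction of 4.92 (adjusted p = 0.000836). Mir1946a was listed at 7.50 and 7.78 FPKM in the same libraries and at 0 in the others, an interaction of 3.11 (adjusted p = 0.00185). Both libraries are those with the lowest FPKM sums, and the part of that was not tested.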

How the results depend on the processing

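The number of regions, 2414, became 1031 with no KO peak within 5 kb, 1377 with the higher scoring part of each list, 1578 with at least 10 score steps in WT replicate 2 (chosen after seeing the data) and 3885 to 34187 without 1 list. Their share within 1 kb of a start, 4.52%, became 6.01%, 5.59%, 3.60% with the higher scoring part of the KO lists only, and 2.17% to 4.04% without 1 list. Calls in KO DP, 65, became 157 after scaling, 116 with the replicate block and 156 with the title range as a block (21.8%, against 19.02% of all genes). They became 14 within titles 34 to 37 (1.97% against 1.41%) and 383 within titles 738 to 741 (54.2% against 57.1%). For regions within 10 kb they became 17 (7.59%), and without 1 library 28 to 98, with no share of all genes given here. The call in KO SP, 1, became 0 with no filter, only both groups, a pseudocount of 0.1, lists of equal length, regions within 10 kb or without both KO DP libraries of low FPKM sum. It became 33 with the replicate block and 2 with the title block (0.280% against 0.331% of all genes). Within titles 738 to 741 it became 7 (0.990% against 0.997% of all genes), and without 1 library 0 to 1. The causes were not tested. Beside the block values printed with their results, the block changed no call of a named gene. Chst2 lost its call without a filter (adjusted p = 0.0967) and with both groups only (0.0502), Smap2 (0.0685) and Akr1c13 (0.0697) without a filter. No called difference of a named gene changed sign in the alternatives run. Where groups did not overlap, fits that only leave libraries out could not change it. KO DP replicate 3 correlated most with WT SP replicate 4 (0.201) and KO DP replicate 4 with WT SP replicate 3 (0.243). Pairing by number is therefore not shown by these values, and the block fit is an alternative only.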

Other observations

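Chromosome X was not part of the merged regions. It held 384 and 464 peaks in the KO lists, against 3334 and 195 in the WT lists, with median scores of 7.77 and 7.46 in KO and 10.8 and 14.2 in WT.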
